A study of Mus musculus with 24 samples.

Results

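The genes of the mitochondrial respiratory chain and the ATP synthase were followed in the testis of mice with and without NSun2, an RNA cytosine methyltransferase. Members were all genes whose annotated symbol starts with Nduf, Uqcr, Sdha, Sdhb, Sdhc, Sdhd, Cox4 to Cox8 or Atp5, each read through its brightest probe. They number 91 of the 19057 genes named on the array, and 84 of them were among the 12166 genes bright enough to be tested. The 91 genes comprise 35 for subunits of complex I and 8 for its assembly factors, 4 for complex II and 4 for its assembly factors, 7 for complex III, 17 for cytochrome c oxidase (complex IV, with Ndufa4 counted there) and 16 for the ATP synthase (complex V).

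Total RNA from whole testis was read on 24 one-colour arrays of an Illumina mouse beadchip, 6 for each of 4 groups: animals with intact Nsun2 (wild type, WT) at 15 days and at 49 days, and knock-outs (KO) at the same ages. All were of the F1 generation of CBA x C57BL/6J. The knock-out exists as 2 lines, one from gene-trap stem cells and one carrying the Nsun2tm1a allele, neither with a stated cell type restriction, and the line behind a given KO array is unknown here. Whether the arrays of a group come from different animals is not stated either, so p-values measure the spread between these samples, which may be technical. The Nsun2 probe was above background on 5 of 6 WT arrays at 15 days and 3 of 6 at 49 days, and on 0 of 6 KO arrays at either age.

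Complex I takes electrons from NADH, complex II from succinate, and both hand them through ubiquinone to complex III, from which cytochrome c carries them to complex IV, where oxygen is reduced. The proton gradient built on the way drives the ATP synthase. In the testis, Sertoli cells and spermatogonia are known for glycolysis, whereas spermatocytes and spermatids take up lactate and pyruvate and lean on oxidation, and the sperm midpiece is packed with mitochondria. Germ cells also use their own forms of some oxidase subunits: Cox6b2, Cox7b2 and Cox8c are testis forms, while Cox6b1 is the somatic form of subunit 6b. Cox7a1 is known as the heart and muscle form of subunit 7a and Cox7a2 as the form of liver and most other tissues.

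Promoters are shown for the testis and somatic form of subunit 6b and for the pair of subunit 7a. They are also shown for Atp5g2, a gene for the membrane ring subunit c of the ATP synthase. The last is Ndufaf4, a gene for an assembly factor of complex I. Atp5g2 and Ndufaf4 were lower at 49 than at 15 days in WT and higher in adult KO. In this they were like Cox6b1 and Cox7a1 but unlike Cox6b2 and Cox7a2. Each line gives the 250 bases before the gene's start from RefSeq on GRCm38.p6, 5′ to 3′ on the gene's strand. Capitals mark matches to the core of the NRF1 site, the binding site of a transcription factor of many genes for mitochondrial proteins.
Cox6b2 (chr7:4753095-4753344, minus strand): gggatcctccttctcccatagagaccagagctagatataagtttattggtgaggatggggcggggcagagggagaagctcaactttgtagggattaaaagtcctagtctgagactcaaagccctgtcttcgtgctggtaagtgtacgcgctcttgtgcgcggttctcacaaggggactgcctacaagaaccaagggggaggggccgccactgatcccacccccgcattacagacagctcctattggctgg
Cox6b1 (chr7:30626115-30626364, minus strand): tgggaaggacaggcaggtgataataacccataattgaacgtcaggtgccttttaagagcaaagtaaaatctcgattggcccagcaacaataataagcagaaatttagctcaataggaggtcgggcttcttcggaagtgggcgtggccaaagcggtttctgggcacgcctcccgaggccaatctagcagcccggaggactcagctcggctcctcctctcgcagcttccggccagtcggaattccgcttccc
Cox7a1 (chr7:30183921-30184170, plus strand): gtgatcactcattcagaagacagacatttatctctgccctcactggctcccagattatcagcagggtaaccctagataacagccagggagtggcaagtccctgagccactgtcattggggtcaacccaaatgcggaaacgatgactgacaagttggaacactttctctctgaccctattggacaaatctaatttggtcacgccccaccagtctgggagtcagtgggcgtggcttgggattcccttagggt
Cox7a2 (chr9:79759854-79760103, minus strand): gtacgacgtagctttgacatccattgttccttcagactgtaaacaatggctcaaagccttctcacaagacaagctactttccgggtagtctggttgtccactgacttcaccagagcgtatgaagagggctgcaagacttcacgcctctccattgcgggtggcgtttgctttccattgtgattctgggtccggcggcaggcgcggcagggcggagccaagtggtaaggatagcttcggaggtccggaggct
Atp5g2 (chr15:102671048-102671297, minus strand): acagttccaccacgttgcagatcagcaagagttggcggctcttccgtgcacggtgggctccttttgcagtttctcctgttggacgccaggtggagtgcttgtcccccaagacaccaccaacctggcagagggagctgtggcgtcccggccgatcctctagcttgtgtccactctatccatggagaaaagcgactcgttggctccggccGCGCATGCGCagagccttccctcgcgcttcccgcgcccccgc
Ndufaf4 (chr4:24897833-24898082, plus strand): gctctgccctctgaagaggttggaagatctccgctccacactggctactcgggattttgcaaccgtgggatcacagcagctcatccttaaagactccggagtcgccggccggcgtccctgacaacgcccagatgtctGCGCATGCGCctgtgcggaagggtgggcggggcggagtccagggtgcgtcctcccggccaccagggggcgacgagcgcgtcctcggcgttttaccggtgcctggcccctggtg
Atp5g2 and Ndufaf4 hold the palindrome of the NRF1 core, and the pairs of subunits 6b and 7a hold no match to any of the 5 motifs searched. The table held this window for 76 of the 91 members and for 27025 genes in all. GCGCATGC (NRF1), searched on both strands, was in 9 of 76 member windows, which is 11.8%, against 2.56% of all windows. The 9 genes were Atp5g2, Atp5k, Atp5l, Cox6a1, Ndufa11, Ndufa6, Ndufa8, Ndufaf4 and Sdhb. TGACGTCA, the cyclic AMP response element, was in 5.26% of member windows against 1.77% of all. CCGGAAGT (GABPA) was in 3.95% against 3.23%, AAGATGGCG (YY1) in 1.32% against 0.71%, and TCAAGGTCA (ERRA) in 1.32% against 0.422%. Matches to the NRF1 core overlap each other in Atp5g2 and Ndufaf4, where its palindrome is read on both strands, and Ndufa11 held both this core and the response element, whose letters cannot overlap. Member windows held a median of 15 CpG dinucleotides against 6 in all windows, and no test was made of the difference in motif shares.

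Cox8c, the testis form of oxidase subunit 8, was among the brightest members in adult testis and differed most between genotypes in juveniles. On the background-corrected, quantile-normalized log2 scale used throughout, its level at 15 days ran from 11.89 to 13.98 with a median of 12.66 on WT arrays, and from 8.74 to 10.70 with a median of 10.28 on KO arrays. At 49 days WT ran from 15.15 to 15.40 with a median of 15.34, and KO from 11.88 to 15.41 with a median of 14.79. The genotypes did not overlap at 15 days and did at 49 days, where KO replicate D alone lay at 11.88 and the other 5 KO arrays between 14.47 and 15.41. KO minus WT was -2.82 at 15 days (SE 0.47, limma adjusted p = 0.00125), a level 7.05-fold lower, and lay between -3.90 and -2.40 within the 4 slides. At 49 days it was -0.87 (SE 0.47, limma adjusted p = 0.104) and did not pass, and it was -0.35 without replicate D, but after cyclic loess it was -1.37 (limma adjusted p = 0.0142). In WT the gene rose by 2.43 from 15 to 49 days (SE 0.47, limma adjusted p = 5.16e-05). Its brightest raw intensity, 43074, lay below the lowest array maximum of 56458, and compression of so bright a signal was not tested.

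Cox6b2, the testis form of subunit 6b, which sits on the intermembrane face of the oxidase, followed the same order of groups. WT arrays ran from 9.78 to 11.48 at 15 days (median 10.36) and from 12.44 to 12.62 at 49 days (median 12.52). KO arrays ran from 8.29 to 9.51 at 15 days (median 9.24) and from 9.57 to 12.71 at 49 days (median 12.22), again with replicate D lowest and the others from 12.04 upward. KO fell below WT by 1.44 at 15 days with no overlap (SE 0.39, limma adjusted p = 0.0361), within slides from -2.33 to -1.26. That call sat near the threshold and was lost after scale normalization (adjusted p = 0.0528) and cyclic loess (0.0613), without a filter on dim probes (0.0564), with slide as a random block (0.0507) and without any of several single arrays (up to 0.111, without KO replicate D). At 49 days the difference of -0.64 did not pass (limma adjusted p = 0.147) and was -0.18 without replicate D, although it did after cyclic loess, at -1.46 (limma adjusted p = 0.00433). A second, dimmer Cox6b2 probe, above background on 16 of 24 arrays, gave the reverse balance, -0.62 at 15 days (limma adjusted p = 0.37) and -2.40 at 49 days (limma adjusted p = 5.14e-06). Both probes rose with age in WT, the brightest by 1.97 (SE 0.39, limma adjusted p = 6.76e-05) and the dimmer by 4.49.

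Cox7b2, the testis form of subunit 7b, was measurable in adults only. It was above background on 0 of 6 WT and 0 of 6 KO arrays at 15 days, and on 6 of 6 WT and 5 of 6 KO arrays at 49 days. Adult WT arrays ran from 6.70 to 8.01 (median 7.50), and adult KO arrays from 5.25 on replicate D to 8.11 on replicate A (median 7.09), so the genotypes overlapped. WT was at least 2.05-fold higher at 49 than at 15 days, a bound against the dimmest level above background (limma adjusted p = 2.36e-05), and KO minus WT at 49 days was -0.33 (SE 0.33, limma adjusted p = 0.385; 0.04 without replicate D).

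**Figure D1:**
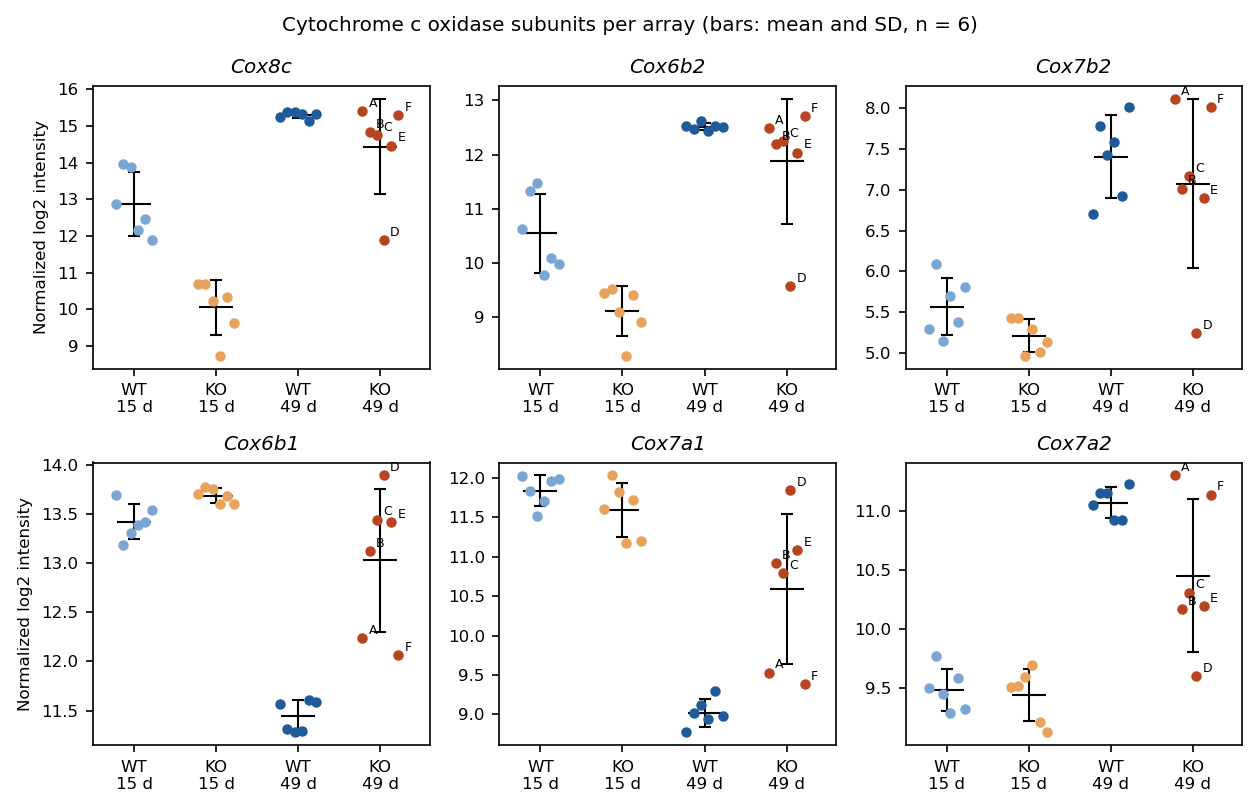
Normalized log2 intensity of 6 cytochrome c oxidase subunit genes on each of the 24 arrays, by group, with the mean and SD of 6 arrays as bars and the KO 49-day replicates lettered. Cox8c and Cox6b2 are lower in KO at 15 days without overlap, and at 49 days KO replicate D lies apart at 11.88 and 9.57.

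The somatic partner Cox6b1 ran the other way. Its level was 13.18 to 13.69 in WT (median 13.40) and 13.59 to 13.77 in KO (median 13.69) at 15 days, and 11.28 to 11.61 in WT (median 11.44) against 12.07 to 13.89 in KO (median 13.27) at 49 days. Adult KO arrays all lay above adult WT arrays, with D highest and A and F lowest. The adult difference was 1.58 (SE 0.22, limma adjusted p = 3.05e-06), and a second probe gave 1.24. The change with age in WT was -1.98 (limma adjusted p = 1.52e-08).

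Both forms of subunit 6b can be read on the same array through their brightest probes, leaving the dimmer Cox6b2 probe aside. Because 2 probes have no common scale, only the shift of their difference between groups can be read. In RNA of whole testis the forms may come from different cells, so a shift does not show an exchange within the oxidase. In adult KO the change was 1.58 for Cox6b1 and -0.64 for Cox6b2, which did not pass. Cox6b2 minus Cox6b1 ran from -3.61 to -1.82 on WT and from -5.31 to -4.25 on KO arrays at 15 days, and from 0.92 to 1.33 on WT and from -4.32 to 0.64 on KO arrays at 49 days. No KO value reached the WT range of its age. The shift with age in WT was 3.95, and KO minus WT was -1.70 at 15 days and -2.22 at 49 days. Each had p = 0.00216 in a two-sided exact permutation test over 6 against 6 arrays, the smallest value that 6 against 6 can give, and adjusted p = 0.00568 over the 21 tests of 7 pairs and 3 contrasts. Over the 5 scalings the shifts stayed between 3.74 and 4.11, between -1.73 and -1.44 and between -2.46 and -2.11. Within slides they lay between 2.86 and 4.50, between -2.66 and -1.41 and between -2.95 and -1.70. On adult KO replicate D the difference was -4.32, inside the range of the juvenile KO arrays, while A (0.26) and F (0.64) lay nearest to adult WT.

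**Figure D2:**
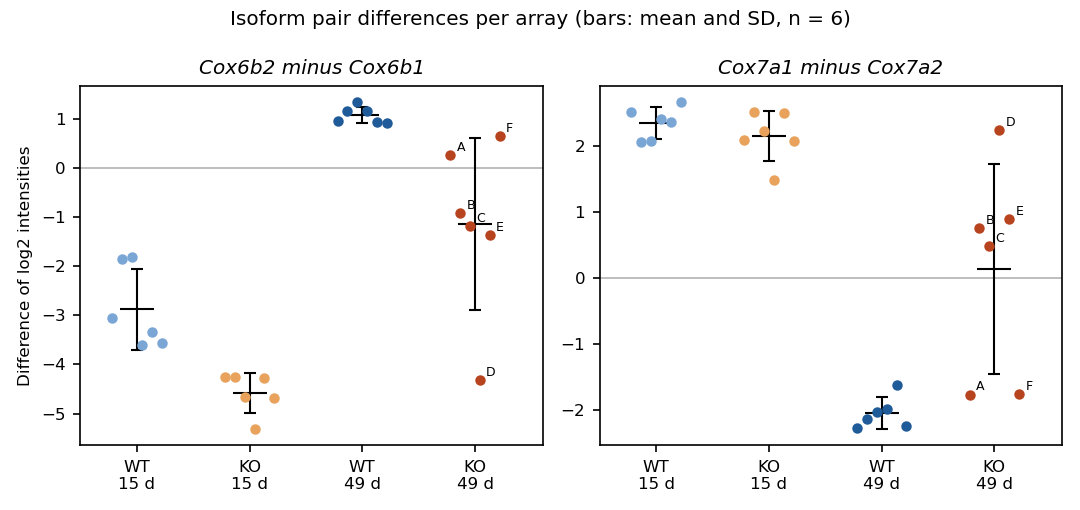
Difference of log2 intensities between the probes of an isoform pair on each array, by group, with mean and SD of 6 arrays. Cox6b2 minus Cox6b1 is highest in adult WT (0.92 to 1.33), and Cox7a1 minus Cox7a2 is lowest there (-2.28 to -1.63), with KO 49-day replicates spread between the adult and juvenile ranges.

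The pair of subunit 7a, a small subunit at the edge of the oxidase, moved as strongly although neither form is a testis form. Cox7a1 ran from 11.52 to 12.02 in WT (median 11.89) and from 11.17 to 12.03 in KO (median 11.66) at 15 days, and from 8.78 to 9.29 in WT (median 9.00) and from 9.38 to 11.84 in KO (median 10.86) at 49 days. Cox7a2 ran from 9.29 to 9.77 (median 9.47) and from 9.12 to 9.69 (median 9.51) at 15 days, and from 10.92 to 11.23 (median 11.10) and from 9.60 to 11.30 (median 10.25) at 49 days, in the same order of groups. In adult KO testes Cox7a1 was above every WT array, while Cox7a2 overlapped WT through replicates A and F. Cox7a1 fell by 2.82 with age in WT (SE 0.29, limma adjusted p = 5.14e-09), a level 7.04-fold lower, and Cox7a2 rose by 1.59 (SE 0.20, limma adjusted p = 1.89e-07). KO minus WT at 49 days was 1.57 for Cox7a1 (SE 0.29, limma adjusted p = 6.00e-05) and -0.62 for Cox7a2 (SE 0.20, limma adjusted p = 0.00988), and both calls held under the 5 scalings. The Cox7a2 call was lost when the 12 adult arrays were fitted alone (adjusted p = 0.0511).

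Cox7a1 minus Cox7a2 ran from 2.07 to 2.67 on WT and from 1.48 to 2.52 on KO arrays at 15 days, where the groups overlapped and the shift of -0.20 did not pass (exact permutation adjusted p = 0.357). At 49 days it ran from -2.28 to -1.63 on WT arrays and from -1.77 to 2.24 on KO arrays. KO replicates A (-1.77) and F (-1.76) lay inside the WT range, B, C and E between 0.48 and 0.89, and D at 2.24 among the juvenile values. The shift of 2.19 had an exact permutation adjusted p of 0.0136, and the shift with age in WT was -4.40 (exact permutation adjusted p = 0.00568). Cox7a1 is also a gene of muscle and brown fat. Of 6 muscle markers 3 were bright enough to test and 2 of those rose in adult KO, where 46.8% of all genes rose. The mean level over the 6 was 6.10 to 6.49 in adult WT and 6.31 to 6.97 in adult KO. Ckm, Tnnt3 and Acta1 were above background on none of the adult arrays, and Ucp1 of brown fat on none either. The other brown fat marker, Cidea, was above background on every array, rose in adult KO by 0.61 (limma adjusted p = 0.0188) and was lower by 4.19-fold at 49 than at 15 days in WT. The part of these markers in the Cox7a1 values was not tested.

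The other pairs could not be read as isoform contrasts. Cox6a2 and Cox4i2, the muscle and lung forms of subunits 6a and 4, and Cox7b, the somatic form of subunit 7b, were above background on 4, 0 and 3 of 24 arrays, so that their pairs set a measured partner against a signal at or near background, whose own shifts enter the difference. For Cox6a2 minus Cox6a1 the shift was 0.49, -0.07 and 0.85 for KO minus WT at 15 and 49 days and for age in WT, and for Cox4i2 minus Cox4i1 it was 0.27, -0.27 and 0.21. Cox7b2 minus Cox7b gave -1.004 at 15 days (exact permutation adjusted p = 0.00568), where neither form was above background in WT, -1.18 at 49 days (exact permutation adjusted p = 0.189), which became -0.53 without KO replicate D, and 2.60 with age. The 2 pairs taken from outside the symbol rule, the testis and somatic cytochrome c genes Cyct and Cycs and the carriers Slc25a31 and Slc25a4, held Cyct, and both carrier forms, above background on 0 arrays. The first pair shifted by -0.24 and -1.68 with genotype at 15 and 49 days, and the second by -0.10 and -0.11. Cox8b, the muscle form of subunit 8, was above background on 0 arrays, and Cox8a was not analysed here.

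Normal maturation set the scale for the remaining members. From 15 to 49 days in WT, 8 of 84 tested members rose and 59 fell, with a median of -0.61. Over all 12166 tested genes 83.1% changed, 27.9% higher and 55.2% lower, with a median of -0.58, so the share of members that fell exceeded the background while the median barely differed. The balance depended on the scaling: after cyclic loess 42 members rose and 19 fell, with a median of 0.27, against 42.5% and 34.7% of all genes and a median of 0.10. Calls held in the same direction under all 5 scalings for 8 members that rose and 19 that fell, against 27.0% and 34.7% of all genes. Changes below are on the quantile scale. Those of single members called a rise or a fall held under the 5 scalings unless said otherwise. Cell type markers are given on the quantile scale only.

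The 8 risers were Cox6b2, Cox7a2, Cox7b2, Cox8c, the complex I accessory subunit genes Ndufa12 and Ndufb5, and the assembly factor genes Ndufaf2 and Ndufaf3. Ndufaf3, which works with Ndufaf4 early in building complex I, had WT levels of 8.34 to 9.10 (median 8.54) at 15 days and 10.47 to 10.97 (median 10.51) at 49 days, without overlap. It rose 4.01-fold (limma adjusted p = 1.48e-06), while its partner Ndufaf4 fell by 1.65 (SE 0.13, limma adjusted p = 7.51e-11), from 11.15 to 11.62 at 15 days to 9.59 to 9.78 at 49 days. Ndufaf2 is a paralogue of Ndufa12 that holds its place during assembly, and both rose, by 0.90 (limma adjusted p = 1.04e-04) and 0.46 (limma adjusted p = 0.0059).

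Falls led among the subunits of each of the 5 complexes on the quantile scale. After Cox7a1, the largest belonged to Atp5j, the coupling factor 6 of the ATP synthase (-2.27), Ndufa4, a subunit now placed in complex IV (-2.10), Cox6b1, Atp5g2 (-1.93) and Ndufa1, a small membrane subunit of complex I whose gene lies on the X chromosome (-1.79). Of 16 members of complex V 14 fell and 0 rose, of 34 of complex I 23 fell and 2 rose, of 7 of complex III 5 fell, and of 3 of complex II 3 fell. After cyclic loess the counts were 4 higher and 4 lower in complex V, 20 and 8 in complex I, 3 and 1 in complex III and 1 and 1 in complex II. Complex IV split into 4 that rose, all of them testis forms or Cox7a2, and 9 that fell, against 6 and 3 after cyclic loess.

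**Figure D3:**
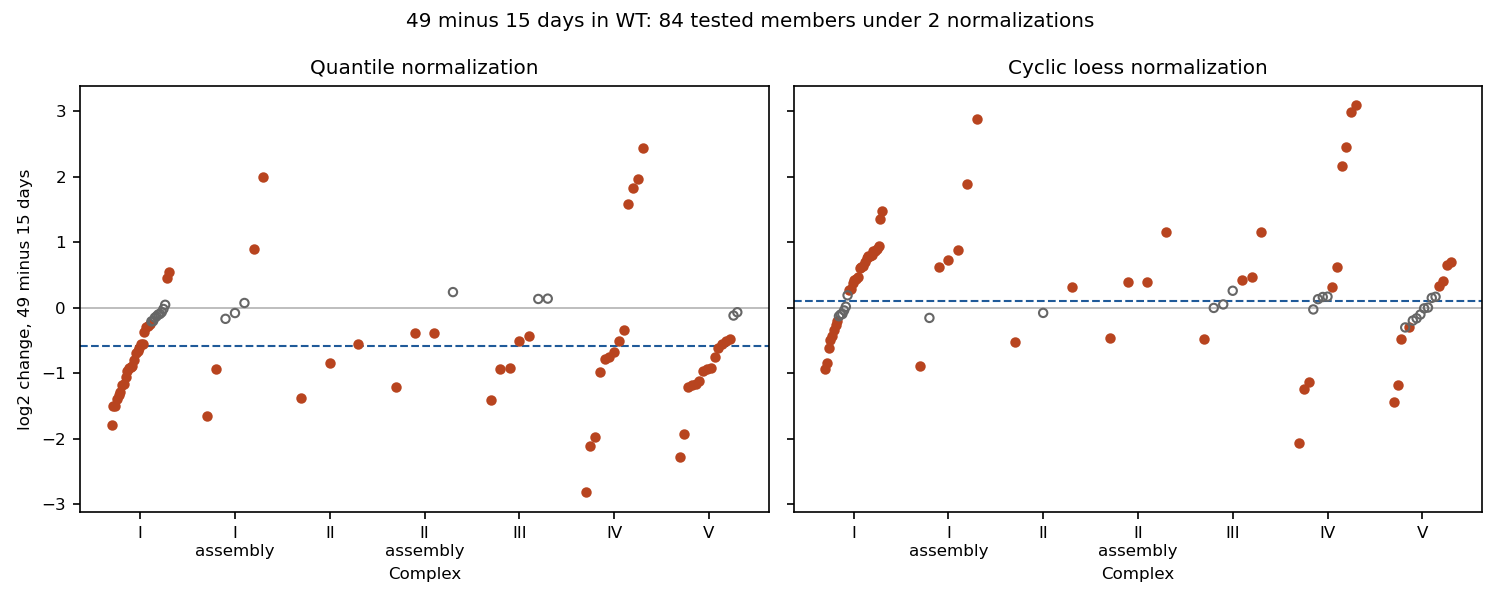
Change from 15 to 49 days in WT (log2) of the 84 tested members, grouped by complex and sorted within it, after quantile (left) and cyclic loess normalization (right); filled points passed the test and the dashed line is the median of all 12166 tested genes. The median of the members lies at -0.61 on the left and at 0.27 on the right.

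At 15 days, knock-out and wild-type testes differed in 3 of 84 members, and these were lower in KO. They were Cox8c, Cox6b2 and Uqcrfs1, which encodes the Rieske iron-sulfur protein of complex III. Over all tested genes 4.69% changed, 1.10% higher and 3.59% lower, so 3 of 84 is a share near the background. The member median was -0.04 and that of all genes 0.004. Under all 5 scalings only Cox8c was called, against 0.732% of genes higher and 1.39% lower. Uqcrfs1 was above background on 2 of 6 WT and 0 of 6 KO arrays at this age, its levels of 5.63 to 6.55 (median 6.26) and 5.43 to 6.07 (median 5.61) overlapped, and its difference of -0.56 (limma adjusted p = 0.0366) shrank to -0.16 on the authors' log2 values, where it did not pass.

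Of the 84 members 1 had every KO array above every WT array and 6 had every KO array below, against 4.53% and 6.56% of all genes. The one above was Uqcrh, the hinge subunit of complex III, at 14.42 to 14.45 in KO and 13.87 to 14.27 in WT. Its difference was 0.38 (limma adjusted p = 0.0676), and 0.54 after cyclic loess (limma adjusted p = 0.0135). Those below were Cox8c, Cox6b2, Ndufaf3 (-0.96, limma adjusted p = 0.0671), Ndufv2, Uqcrc1 and Atp5b, the catalytic beta subunit of the ATP synthase (-0.20, limma adjusted p = 0.28). The count of calls rested on a few arrays: it was 10 (2 higher, 8 lower) when the 12 arrays of this age were fitted alone, 7 without adult KO replicate D, and 1 without WT replicate A and KO replicate B, which stood apart on the elongating spermatid markers at 6.98 and 8.21 against 5.50 to 5.92 on the other 10 arrays.

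Markers of pachytene spermatocytes moved with Cox8c and Cox6b2 at this age. All 7 listed markers were measured and 5 of them fell in KO, where 3.59% of all genes fell. The mean level of the 7 ran from 9.03 to 10.92 on WT arrays and from 6.57 to 8.63 on KO arrays, with Ccna1 above background on none. WT replicates B and C, highest for these markers at 10.92 and 10.91, were also highest for Cox8c and Cox6b2, and KO replicate D was lowest for all of them. In RNA from whole tissue, fewer cells of a type and less RNA per cell cannot be told apart, and the part of the markers in these values was not tested.

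At 49 days, members were mostly higher in KO on the quantile scale, but that balance turned with the scaling and only 19 of 84 kept their call. On the quantile scale 53 rose and 8 fell, with a median of 0.41, whereas over all genes 73.2% changed, 46.8% higher and 26.5% lower, with a median of 0.30. After cyclic loess 12 rose and 37 fell, with a median of -0.14, against 31.3% and 39.4% of all genes and a median of -0.07. After scale normalization 29 rose and 20 fell, and 14 members were called in opposite directions under different scalings. Held under all 5 scalings were 12 that rose, 14.3% of members against 31.2% of all genes, and 7 that fell, 8.33% against 25.2%. Every KO array lay above every WT array for 38 members and below for 1, Ndufaf5, against 24.1% and 15.0% of genes, on the quantile scale.

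**Figure D4:**
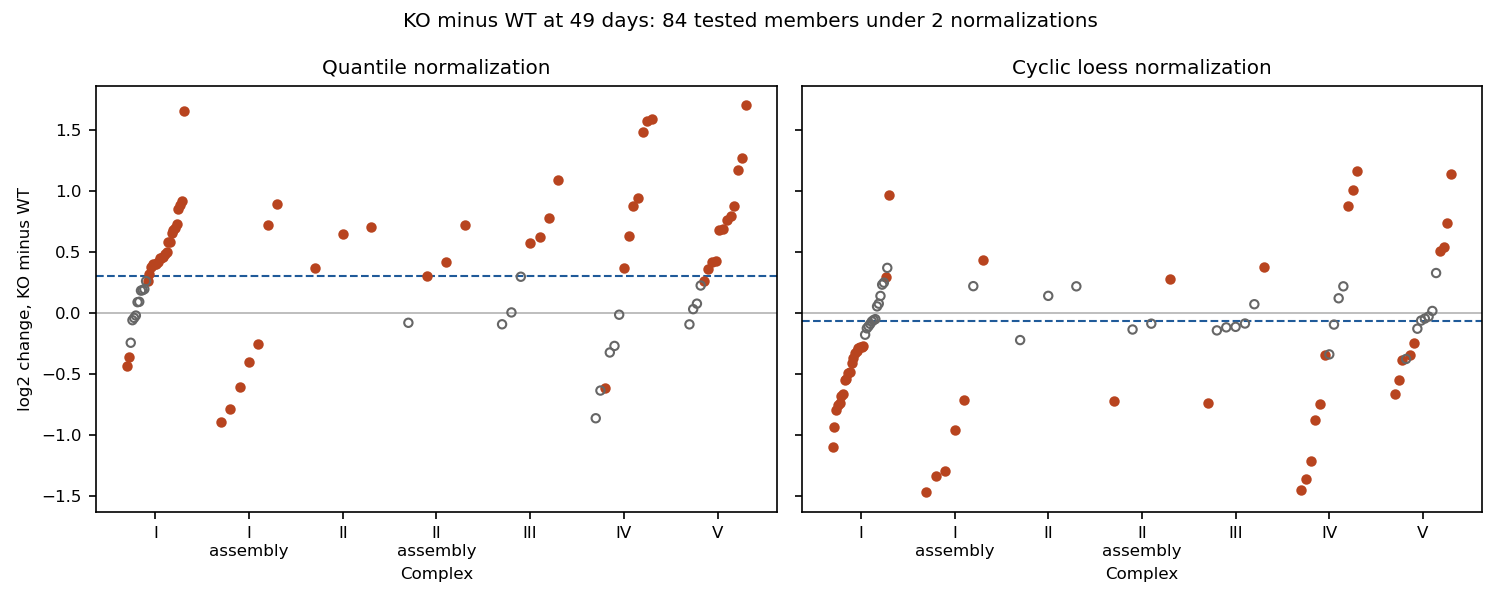
KO minus WT at 49 days (log2) for the 84 tested members, grouped by complex and sorted within it, after quantile (left) and cyclic loess normalization (right); filled points passed the test and the dashed line is the median of all tested genes. The member median turns from 0.41 to -0.14, and 5 of the 7 assembly factors of complex I are called below 0 under both.

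Among subunits of complex I, Ndufa1 and Ndufs8 rose and Ndufb7 and Ndufa12 fell under every scaling. Ndufa1 stood at 12.44 to 12.76 in WT (median 12.55) and 13.53 to 14.64 in KO (median 14.46), near the 14.11 to 14.51 of the juvenile arrays. KO minus WT was 1.65 (SE 0.15, limma adjusted p = 3.76e-08), 3.14-fold, and 0.97 after cyclic loess. Ndufs8, an iron-sulfur subunit of the arm that faces the matrix, rose by 0.88 and after cyclic loess by 0.29. Ndufb7, with WT levels of 9.93 to 10.20 and KO levels of 9.13 to 9.94, fell by 0.44 (limma adjusted p = 0.00274), and Ndufa12 fell by 0.36 (limma adjusted p = 0.0303), a call lost without KO replicate D (-0.22, limma adjusted p = 0.0955). Of the 34 tested subunits 22 rose and 2 fell, but after cyclic loess 2 rose and 19 fell.

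Assembly factors of complex I, proteins that help build the complex without staying in it, were the one group of members led by falls under both normalizations. Of 7 tested, 5 fell and 2 rose on the quantile scale, and 5 fell and 1 rose after cyclic loess, with medians of -0.41 and -0.96. Over all genes 26.5% fell and 46.8% rose on the quantile scale, and 39.4% and 31.3% after cyclic loess. The 49-day counts of the other complexes stand against the same shares. Ndufaf3 stood at 10.47 to 10.97 in WT (median 10.51) and 8.18 to 10.73 in KO (median 9.97), and fell by 0.90 (SE 0.30, limma adjusted p = 0.0102), or by 0.58 without KO replicate D (limma adjusted p = 0.0268). Ndufaf7, which methylates a core subunit, ran from 9.39 to 9.78 in WT (median 9.70) and from 7.80 to 9.57 in KO (median 8.96), a fall of 0.79 (SE 0.24, limma adjusted p = 0.0061). KO replicate F reached the WT range of Ndufaf3, and A, B and F that of Ndufaf7, while D was lowest for both. Ndufaf2 fell by 0.61 (SE 0.18, limma adjusted p = 0.00541; 0.41 without D), and Ndufaf8 by 0.41 (limma adjusted p = 0.0382), a call lost in the 12 adult arrays alone (adjusted p = 0.119) and without any of several single arrays (without replicate D, -0.22 and 0.121). Ndufaf5, which hydroxylates a core subunit, fell by 0.26 without overlap (limma adjusted p = 0.0199) but not after scale normalization (-0.21, adjusted p = 0.105). Ndufaf4 rose by 0.89 (SE 0.13, limma adjusted p = 5.61e-06), from 9.59 to 9.78 in WT to 10.12 to 10.91 in KO, and Ndufaf1, which acts on the membrane arm, by 0.72, a call not made after cyclic loess. Of these factors Ndufaf3 and Ndufaf2 rose and Ndufaf4 fell with age in WT, each opposite to its adult KO difference.

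**Figure D5:**
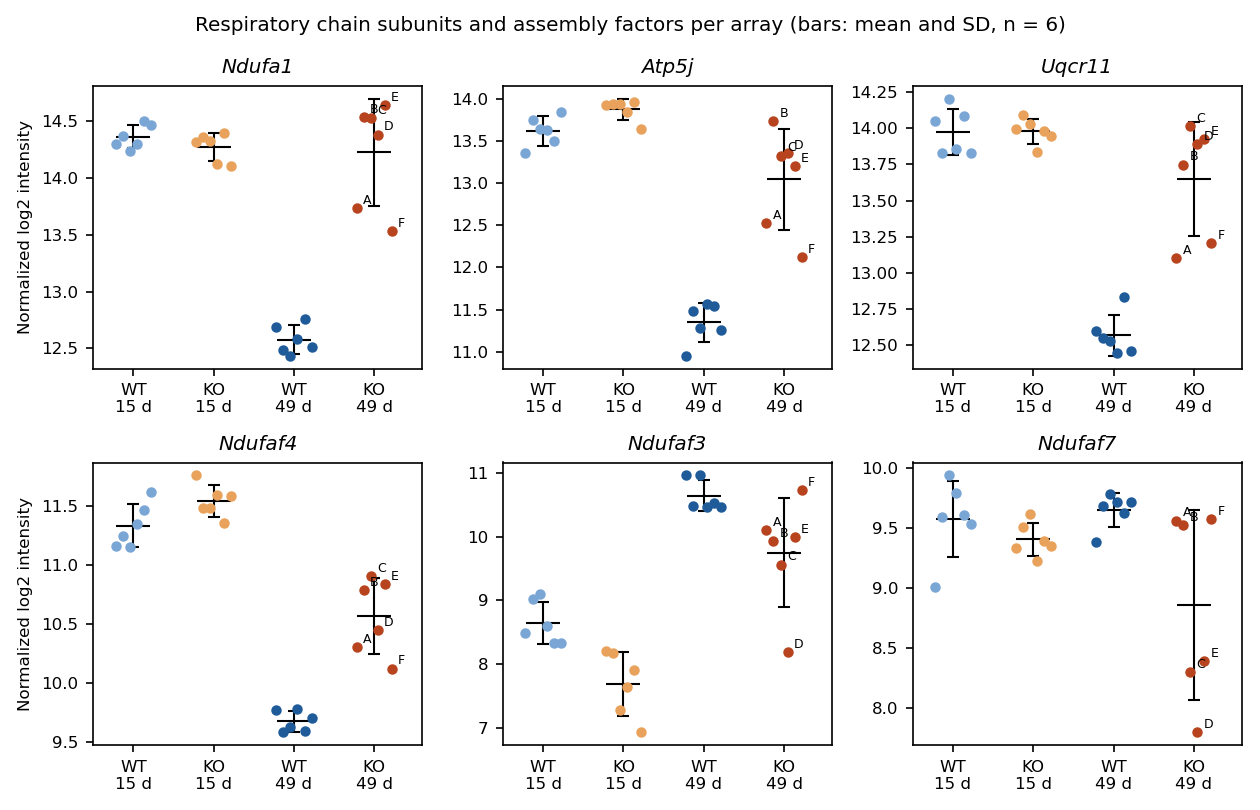
Normalized log2 intensity of 6 members of complexes I, III and V on each array, by group, with mean and SD of 6 arrays and the KO 49-day replicates lettered. Ndufa1, Atp5j, Uqcr11 and Ndufaf4 lie above WT on every adult KO array, Ndufaf3 and Ndufaf7 overlap with WT, and the directions of these 6 held after cyclic loess.

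Complex II, the succinate dehydrogenase, and complex III gave few calls that held. Sdhc, one of the membrane anchors, rose by 0.70 (limma adjusted p = 2.17e-04), Sdhd, the other anchor, by 0.64, and Sdhb, the iron-sulfur subunit, by 0.37 (limma adjusted p = 0.0085), but after cyclic loess these were 0.14, 0.22 and -0.23 and none passed. Sdha, the catalytic subunit, was above background on 0 arrays and was not tested. Sdhaf3, which helps to place the iron-sulfur clusters of Sdhb, rose by 0.71 (limma adjusted p = 1.61e-04), from 8.87 to 9.29 in WT to 9.36 to 10.31 in KO, and by 0.28 after cyclic loess. Sdhaf4 did not pass (-0.08, limma adjusted p = 0.61). In complex III the accessory subunit gene Uqcr11 rose by 1.08 (SE 0.14, limma adjusted p = 1.86e-06), with WT at 12.45 to 12.83 (median 12.53) and KO at 13.10 to 14.02 (median 13.82), and the groups did not overlap. Of 7 tested members of complex III 4 rose and 0 fell, but after cyclic loess 1 rose and 1 fell, and Uqcrh went from 0.62 to -0.09.

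In complex IV 7 of 13 rose and 1 fell, but 3 rose and 6 fell after cyclic loess. The 3 were Cox6b1, Cox7a1 and Ndufa4, all of which held under every scaling. Ndufa4 stood at 11.60 to 11.91 in WT (median 11.71) and 12.49 to 13.66 in KO (median 13.45) and rose by 1.48 (SE 0.17, limma adjusted p = 4.85e-07). Cox4i1, the main form of the subunit that binds regulators of the oxidase, rose by 0.62 (limma adjusted p = 1.20e-05) and was at -0.10 after cyclic loess. Cox6a1 rose by 0.94 and was at 0.22 after cyclic loess (limma adjusted p = 0.0614).

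In the ATP synthase 12 of 16 rose and 0 fell, and 4 rose and 5 fell after cyclic loess. Atp5j stood at 10.95 to 11.57 in WT (median 11.38) and 12.12 to 13.74 in KO (median 13.27), a rise of 1.70 (SE 0.19, limma adjusted p = 4.50e-07), 3.25-fold, and of 1.14 after cyclic loess. A second, dimmer Atp5j probe was called the other way at -0.41 (limma adjusted p = 0.0356) and did not pass with age in WT (-0.06), so the gene's direction depends on the probe. Subunit c is made from several genes that encode the same mature protein, and the named ones, Atp5g2 and Atp5g3, rose together. Atp5g2 went from 8.85 to 9.41 in WT (median 9.37) to 9.72 to 10.87 in KO (median 10.59), by 1.17 (SE 0.18, limma adjusted p = 1.20e-05). Atp5g3 went from 13.40 to 13.62 (median 13.55) to 14.31 to 15.21 (median 14.90), by 1.27 (SE 0.12, limma adjusted p = 5.47e-08). No KO array of either gene reached the WT range. Atp5k, which holds synthase dimers together, rose by 0.87 with overlap. Atp5pb, the stalk subunit b, did not pass (-0.10, limma adjusted p = 0.705), and 2 of its 3 other probes were called in opposite directions (-0.82 and 0.52).

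Probes were not unanimous in general. Of the 27 members with several tested probes, the brightest was called for 21 at 49 days, all probes shared the call for 11, and for 2, Atp5j and Atp5o, another probe was called the other way. For age in WT these numbers were 20, 15 and 1, the last being Atp5pb.

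The adult KO arrays were not alike. Against the WT mean of the age, the median change over all tested members was 0.27 on replicate A and 0.28 on F, and 0.38 to 0.53 on B to E, on the quantile scale. The median over all tested genes was 0.12 and 0.09 on A and F and 0.29 to 0.47 on B to E. For the complex I assembly factors it was -1.34 on D, -0.51 and -0.59 on C and E, -0.12 on B, -0.06 on A and 0.00 on F. Within the 4 slides, KO minus WT at 49 days lay between 1.38 and 2.19 for Atp5j, between 1.55 and 1.94 for Ndufa1 and between -1.32 and -0.58 for Ndufaf3.

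Cell type markers differed in the same arrays. Of 6 round spermatid markers 6 fell in adult KO, with a mean level of 12.78 to 13.07 in WT and 8.22 (replicate D) to 12.42 (F) in KO. Of 7 pachytene markers 3 fell, at 14.18 to 14.27 in WT and 10.67 (D) to 14.12 in KO. The 6 measured of 8 Sertoli markers all rose, from 8.35 to 8.80 in WT to 9.30 (A) to 11.80 (D) in KO, with Gata1 and Amh above background on no adult WT array. Of 6 elongating spermatid markers 4 fell, and 4 of 4 macrophage, 3 of 4 Leydig and 3 of 4 spermatogonial markers rose. All these marker counts stand against 46.8% of all genes higher and 26.5% lower, so the smaller lists say little by their counts. In the round spermatid, pachytene and Sertoli markers KO replicates A and F lay nearest to WT and D farthest. The same held for Cox6b1, Cox7a1, Cox7a2 and the 6b pair, while B, C and E did not keep one order between them. The spermatogonial markers did not follow this order. Their mean level was 6.73 to 7.15 in WT, and KO replicate D lay nearest at 7.24. Replicates C (8.30) and E (8.25) lay farthest. The part of cell make-up in the member values was not tested.

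In KO testes, 44 of 84 members changed from 15 to 49 days, against 58.2% of all genes. Cox8c rose by 4.39 (limma adjusted p = 5.03e-08), Cox6b2 by 2.77, Ndufaf3 by 2.07 and Cox7a2 by 1.01. The falls were led by Atp5pb at -1.31 and Cox7a2l, a gene related to subunit 7a that links complexes III and IV, at -1.15. The other Atp5pb probes gave -1.44, -0.45 and 0.10, the last of which did not pass (limma adjusted p = 0.626), so this fall depends on the probe. Testing the difference between the genotype effects at 49 and 15 days, which uses all 4 groups, 47 members were higher and 1 lower, against 52.9% of genes called, 36.0% higher and 16.9% lower. After cyclic loess 8 were higher and 24 lower. Cox8c had a difference of 1.95 (limma adjusted p = 0.0194), its effect being -2.82 at 15 and -0.87 at 49 days, but did not pass after cyclic loess (1.32, limma adjusted p = 0.112). Cox7a1 (1.82, limma adjusted p = 0.00139) and Ndufa1 (1.74) followed, with effects of -0.25 and -0.09 at 15 days. Both held under the 5 scalings. The 1 below 0 was Ndufaf5 at -0.34 (limma adjusted p = 0.0412), a call that held in 4 of 5 scalings and was lost without any of 12 single arrays.

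Other genes of mitochondrial energy metabolism were read from lists outside the symbol rule, none of which had a gene called at 15 days in 59 tested on the quantile scale. Over all tested genes 4.69% were called at this age, so 0 of 59 says little about these lists. Under other scalings Cmc1 and Coa3, named for oxidase assembly, were called higher at that age in 3 and 2 of 5 (Cmc1 0.50 after cyclic loess, limma adjusted p = 0.0297). The counts for adult KO that follow stand against 46.8% higher and 26.5% lower over all genes, or 31.3% and 39.4% after cyclic loess. Of 5 electron carrier genes 4 rose in adult KO under both normalizations and 0 fell. Cycs, the somatic cytochrome c, stood at 11.36 to 11.79 in WT (median 11.57) and 12.17 to 14.16 in KO (median 13.44), and rose by 1.67 (SE 0.22, limma adjusted p = 2.14e-06). Etfa, which feeds electrons from fatty acid oxidation into the chain, rose by 1.19. Of 11 citric acid cycle genes 10 rose and 0 fell (5 and 2 after cyclic loess), led by Idh3g, a subunit of isocitrate dehydrogenase (1.74), and Suclg2 of succinate-CoA ligase (1.14). Of 4 genes for synthase assembly and nucleotide carriers 3 rose and 1 fell (2 and 1 after cyclic loess). Slc25a5, an ADP/ATP carrier, rose by 1.72, Tmem70 by 0.99, and Atpaf2, which helps to build the F1 part of the synthase, fell by 0.75 (limma adjusted p = 1.08e-04).

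Among 17 oxidase assembly genes 11 rose and 2 fell (5 and 6 after cyclic loess), against 46.8% and 26.5% of all genes (31.3% and 39.4%). Coa7 (1.37) and Cox15, which makes haem a (1.30), rose, and the copper-inserting Cox11 (-0.63) and Pet100 (-0.30) fell. Regulators of mitochondrial biogenesis were divided, with 5 of 13 higher and 6 lower (4 and 7 after cyclic loess). Tfam encodes a protein that packages mitochondrial DNA and activates its transcription. Its level was 10.09 to 10.72 in WT and 10.48 to 10.76 in KO at 15 days. At 49 days it was 13.60 to 14.02 in WT (median 13.93) and 10.02 to 13.41 in KO (median 11.12). The adult groups did not overlap, and Tfam fell by 2.40 in KO (SE 0.37, limma adjusted p = 1.06e-05). At 49 days no member's brightest probe changed as much, although the dimmer Cox6b2 probe gave -2.40. Tfam had risen by 3.44 with age in WT, and its protein was not measured. Tfb1m, which methylates mitochondrial ribosomal RNA, fell by 1.28 (limma adjusted p = 2.27e-07). In the same arrays Nrf1, the factor named for the motif above, rose by 1.00 (limma adjusted p = 8.73e-05) and Pprc1, a coactivator, by 1.07. Of the 9 members with the NRF1 core, Atp5g2, Atp5k and Ndufaf4 rose in adult KO under all 5 scalings and the others did not. Over all genes 31.2% rose under all 5, so the share of these 9 is near the background. Sdhb, among those others, turned from 0.37 to -0.23 after cyclic loess. A link between the motif and these changes was not tested. Of 9 general mitochondrial proteins 4 rose, a share near that of all genes, and 0 fell (3 and 4 after cyclic loess). Risers included the outer membrane channel gene Vdac1 (1.70) and the chaperone gene Hspd1 (1.49). Apart from Cmc1 and Coa3, the named genes of these lists kept their calls in adult KO under all 5 scalings.

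Of the members that entered no test, Ndufs1, Sdha, Ndufaf6, Cox4i2 and Cox8b were above background on 0 of 24 arrays. Ndufs5-ps is named as a pseudogene, and a probe for it may also read its parent gene, so its change of 0.38 at 49 days, which turned to -0.28 after cyclic loess, is uncertain. X-linked members were Ndufa1, Ndufb11 and Cox7b; Ndufb11, above background on 0 of 6 adult WT arrays, was at least 1.74-fold higher at 15 than at 49 days in WT.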

How the data were processed

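Biotin-labelled cRNA from testis RNA of 24 samples was read on Illumina arrays, per the labels' protocols. The deposited table holds unlogged intensity per probe, and a second deposited table holds the authors' log2 values, which lay within 3.62e-05 of log2 of the quantile-normalized intensities. Its detection p columns hold no values, and the scanner software is not given in the sources used here. Intensities were background-corrected with limma's normexp on 946 dim control rows (offset 16), quantile-normalized and log2-transformed. A probe counted as above background where at most 1% of its array's dim controls were brighter. The brighter 22639 of 45278 probes were tested in limma 3.58.1 (R 4.3.3), with 1 model over 24 arrays and 4 group means, with Benjamini-Hochberg adjustment over all tested probes (threshold 0.05). A gene was read through its brightest probe. Raw intensity medians were 223.9 to 278.7 per array, and the number of arrays limits the precision. Probes had 1 symbol (34885), several (18, unused) or none (10393).

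Members and lists were chosen with earlier results of these data known. Named genes were both genes of each isoform pair, the 6 largest rises and falls among members past the threshold in each of 4 comparisons, the extremes of each complex at 49 days, and up to 2 passing genes per direction from each pathway list. Others, such as those called under all 5 scalings, without overlap or not tested, were chosen after their values were seen. Cox8a was not analysed here. The 5 scalings were quantile, offset 50, the authors' log2 values, scale and cyclic loess. Slide as a block, within-slide values, the filter, other sample sets and leaving out arrays were also tried. Replicate letters recur in every group, but same-letter correlations lay between -0.0387 and 0.143 at 15 days and between -0.208 and 0.19 at 49 days. Across the ages they lay between -0.053 and 0.134 in WT and between -0.0962 and 0.389 in KO, where 1 of 6 was above 0.1. Letters were not taken to pair samples. The limma step was tested on simulated data. Figures were drawn with matplotlib.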

Additional observations from a re-analysis of the deposited data

Results flagged for a closer look

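Of 128 groups of 6 arrays examined over 32 genes, 8 held an array far from the other 5, where chance flags about 1 in 20 groups. Adult KO replicate D accounted for 4 of them: Cox8c at 11.88 (others 14.47 to 15.41), Cox6b2 at 9.57 (12.04 to 12.71), Cox7b at 7.22 (5.06 to 5.74) and Cox4i2 at 5.98 (4.97 to 5.31). The others were Uqcrfs1 at 5.63 in WT 15-day replicate C (6.22 to 6.55), Ndufaf5 at 9.62 in KO 15-day A (9.33 to 9.44), Sdhc at 12.10 in KO 15-day D (12.29 to 12.40) and Sdhb at 11.21 in WT 49-day F (11.48 to 11.52).

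For 14 of these 32 genes the KO minus WT effect differed between the ages in limma's test of the difference (49 minus 15 days, log2), where 52.9% of all genes were called. It was above 0 for Cox8c (1.95), Cox7a1 (1.82), Ndufa1 (1.74), Atp5j (1.44), Atp5g3 (1.34), Cox6b1 (1.32), Atp5g2 (1.19), Ndufa4 (1.15), Uqcr11 (1.08), Sdhc (0.97), Cox6a1 (0.93), Cox4i1 (0.77) and Ndufaf4 (0.68), and below 0 for Ndufaf5 (-0.34). The calls for Cox8c, Ndufa4, Uqcr11, Cox6a1, Cox4i1, Ndufaf4 and Ndufaf5 were not made under every one of the 5 scalings, and after cyclic loess Cox4i1 was at -0.073. A second Atp5j probe was called the other way (-0.61, limma adjusted p = 0.0399).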

How the results depend on the processing

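Of 3 members called at 15 days the count became 5 on the authors' log2 values and without correcting for background, 10 on the 12 arrays of that age alone, 7 without adult KO replicate D and 1 without WT replicate A and KO replicate B. The difference count fell to 27 after scale normalization, and the count for age in KO to 28 on 12 arrays. Leaving out 1 array gave 1 to 7 calls at 15 days, 57 to 63 at 49 days, 42 to 51 for the difference, 65 to 68 for age in WT and 41 to 48 for age in KO. With the letter as replicate block, 0 members were higher and 2 lower at 15 days, 53 and 8 at 49 days, and 45 and 0 for the difference; Cox8c at 49 days then passed (adjusted p = 0.0484). Cyclic loess reversed Cox4i1 (age 0.17, 49 days -0.10, difference -0.073), Sdhb (0.32 and -0.23 for age and 49 days) and Uqcrh (49 days -0.090). It also reversed Cox4i2 minus Cox4i1 (-0.56 for age and 0.41 at 49 days; -0.15 and 0.20 after scale) and Cox6a2 minus Cox6a1 (0.59 at 49 days; 0.38 after scale). Values near 0 changed sign for Slc25a31 minus Slc25a4 with age (-0.0011 at offset 50, -0.012 after scale, -0.030 without WT 15-day A and KO 15-day B, and -0.030 to 0.059 leaving out 1 array). At 15 days Cox6a1 was -0.012 and Cox7a2 0.018 with slide as a fixed block, Cox6a1 was -0.019 without the pair of 15-day arrays, and leaving out 1 array gave -0.022 to 0.036 for Cox6a1 and -0.096 to 0.018 for Cox7a2. At 49 days leaving out 1 array gave -0.53 to 0.038 for Cox7b2, above 0 without KO replicate D, and -0.14 to 0.10 for Cox6a2 minus Cox6a1. Within slide 4, Cox6b2 minus Cox6b1 was -2.66 at 15 days and 2.86 for age, and Cox7b2 minus Cox7b at 15 days was -2.16 in slide 1 and -0.21 in slide 3. The cause of these shifts was not tested. Signals near background limit Uqcrfs1 and Cox7b2.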
